A study of Mus musculus with 2 samples.

Results

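Hdac2 islands inside genes that share no base with an Hdac1 island were described in nephron progenitor cells, from which the nephron epithelium of the fetal kidney forms. Of 20307 islands found with the Hdac2 antibody, 19450 lay on chromosomes 1 to 19, and 7463 of these (38.4%, 95% Wilson interval 37.7 to 39.1) had no Hdac1 island over them. Among the 7463, 1868 overlapped the span of a protein-coding gene (RefSeq, GRCm38.p6, the assembly that mm10 names), and 202 of the 1868 were left out because they came within 1 kb of either end of an annotated gene, coding or not. The remaining 1666 islands, 8.57% (8.18 to 8.97) of the Hdac2 islands on these chromosomes, are the subject here and are called Hdac2-only islands inside genes. They were chosen by their presence in one list and absence from the other, so neither is a finding.

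The cells came from kidneys of wild-type mouse embryos at E16.5 and were cultured before crosslinking. They were therefore cultured cells, and the labels do not say how many animals or litters gave cells. Chromatin immunoprecipitation and sequencing gave 1 library for Hdac1 and 1 for Hdac2, made with 0.5 µg and 1 µg of antibody per the file labels. The antibody, its amount and the library changed together and cannot be told apart. With 1 library per antibody no test between them was possible, no p is given, and intervals reflect counting error alone. Depth is unknown. An island is a stretch that the authors' caller scored as enriched in reads, on a grid of 200 bp. Each carries 1 value from the authors, and whether it is a p-value or a q-value is not stated. A low value means strong evidence for an island. The peak list does not measure expression. Of 34 genes of nephron progenitors 33 had an Hdac1 island at an end, of 30 renal vesicle genes 26, of 22 stroma genes 17, of 20 ureteric bud genes 16, of 24 podocyte and tubule genes 8, and of 20 endothelium and blood genes 7. Over all genes tested the share was 63.8% with and 62.9% without an Hdac2-only island inside.

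Hdac1 and Hdac2 are closely related enzymes that remove acetyl groups from histone tails. They usually work together as the enzymes of corepressor complexes such as Sin3, NuRD and CoREST, and are recruited to promoters and enhancers by other proteins. Neither binds a DNA sequence of its own. Hdac1 and Hdac2 as a pair, not each alone, are required for the upkeep of the nephron progenitor pool in the mouse kidney.

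The rule removed islands at the ends of genes, but alternative starts within a gene stayed in. The start table used here (250 bases before and 50 after each RefSeq start) placed 5 windows of 300 bases in or across Hdac2-only islands, in Fut8, Rex2, Cd209c and Wiz. Fut8, which encodes the fucosyltransferase that adds core fucose to N-glycans, had both kinds of start and is shown for that contrast. One of its 2 upstream starts, at chr12:77238489-77238788 on the plus strand of GRCm38.p6, held 39 CG pairs and lay in an Hdac1 island of 2.6 kb with a value of 8.04e-83, with an Hdac2 island of 3.8 kb and 3.48e-10 there too. The internal starts, at chr12:77388614-77388913 and chr12:77409891-77410190 on the same strand, held 0 and 4 CG pairs and lay in Hdac2-only islands of 3.6 kb (9.43e-06) and 3.2 kb (1.52e-08). Over all annotated starts of the genes tested the median was 14 CG pairs. In the upstream start the capitals mark CG pairs, and in the internal starts they mark a stretch of 81 bases found in both.

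Fut8 upstream start: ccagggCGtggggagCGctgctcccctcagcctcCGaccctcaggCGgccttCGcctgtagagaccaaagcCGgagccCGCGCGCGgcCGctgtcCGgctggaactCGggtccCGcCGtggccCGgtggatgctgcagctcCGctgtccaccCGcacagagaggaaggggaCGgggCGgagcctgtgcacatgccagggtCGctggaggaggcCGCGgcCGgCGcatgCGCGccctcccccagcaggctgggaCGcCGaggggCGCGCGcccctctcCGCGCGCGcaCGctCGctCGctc
Fut8 internal start 1: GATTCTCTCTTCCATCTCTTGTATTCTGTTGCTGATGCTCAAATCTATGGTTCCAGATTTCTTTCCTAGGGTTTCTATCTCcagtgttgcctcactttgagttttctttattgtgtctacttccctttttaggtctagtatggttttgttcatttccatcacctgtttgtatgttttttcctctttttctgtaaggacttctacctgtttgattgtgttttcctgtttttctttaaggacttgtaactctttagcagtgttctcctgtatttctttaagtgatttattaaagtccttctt
Fut8 internal start 2: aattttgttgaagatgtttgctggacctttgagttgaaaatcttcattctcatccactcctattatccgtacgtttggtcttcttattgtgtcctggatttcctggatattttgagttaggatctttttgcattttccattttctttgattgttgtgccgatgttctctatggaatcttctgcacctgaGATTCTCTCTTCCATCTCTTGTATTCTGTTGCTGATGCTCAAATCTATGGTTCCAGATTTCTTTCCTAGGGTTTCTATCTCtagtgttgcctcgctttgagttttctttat

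Both internal Fut8 starts held fewer CG pairs than its upstream starts (39, and 18 in the one not shown), and the shared stretch lay at different places in the internal windows, from base 1 of the first and from base 190 of the second. The first 40 bases of that stretch, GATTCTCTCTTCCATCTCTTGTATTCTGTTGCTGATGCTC, searched on both strands, occurred in 8 of 31396 start windows on chromosomes 1 to 19 (0.0255%), from 7 genes. Of the 8 windows 3 lay in Hdac2 islands without Hdac1 and 5 in no island. As 2 of the 3 are the Fut8 windows the stretch was taken from, 1 window of the other 6 genes lay in such an island. Of all 31396 windows 153 did. No repeat annotation was used here. The Cd209c start, chr8:3946814-3947113 on the minus strand, held 5 CG pairs in an Hdac2-only island of 6.8 kb (7.19e-09). Cd209c is one of the mouse relatives of the lectin DC-SIGN. The Rex2 window also held 5 CG pairs, and that of Wiz, a zinc finger gene, had 13 CG pairs with 72 upstream bases inside the island. The contrast in Fut8 held only in part in Wiz. A Wiz start with islands of both antibodies within 1 kb held 3 CG pairs, but another such start held 22. A further Wiz start, with an Hdac1 island alone within 1 kb, held 32.

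Hdac2-only islands inside genes were broad. Their median width was 3.6 kb (quartiles 2.8 and 4.8, range 0.4 to 18.6), and together they covered 6.45 Mb. The 2825 Hdac2 islands inside genes that did overlap Hdac1 had a median of 2.0 kb, and the 5820 Hdac1 islands inside genes without Hdac2 one of 1.6 kb. Of the 1666 Hdac2-only islands 400 were 5 kb or wider, against 3.15% of the Hdac2 islands with Hdac1 and 0.928% of the Hdac1 islands. The 5278 Hdac2 islands without Hdac1 between genes had a median of 3.8 kb and 1209 of them (22.9%) were 5 kb or wider. By width, the Hdac2-only islands inside genes thus lay near those between genes and apart from those inside genes that share Hdac1.

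The authors' values did not set them apart in the middle of the range. The median value was 3.08e-08 for Hdac2-only islands inside genes, 3.1e-08 for those between genes and 1.63e-08 for Hdac2 islands with Hdac1 inside genes. The strongest 10% of all Hdac2 islands on chromosomes 1 to 19 held 3.9% of the Hdac2-only islands inside genes and 12.8% of those with Hdac1. Across the 1666 islands wider ones were only loosely stronger (Spearman correlation 0.25 across islands, which share 1 library and are not replicates).

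The rule leaves out islands that overlap Hdac1, so some distance from Hdac1 is built in. The gap to the nearest Hdac1 island had a median of 47.5 kb (quartiles 16.4 and 144.2), 16.9% lay within 10 kb of one and 33.1% more than 100 kb away. The nearest other Hdac2 island was a median of 41.8 kb from an Hdac2-only island inside genes. Hdac1 islands inside genes without Hdac2 lay a median of 25.8 kb from Hdac2. Between genes the median gap from Hdac2-only islands to Hdac1 was 104.2 kb. The longest gap inside a gene was 3992.6 kb, from an island in Cdh12. At the edge of the rule, an island in Zfp978 adjoined an Hdac1 island without sharing a base, one in Adarb2 was 200 bp from an Hdac1 island, and 4 excluded islands overlapped Hdac1 by 200 bp. At the other edge, islands in Casz1 and Cdk15 stayed in at 1030 and 1046 bp from a gene end, while those in Veph1 and Gm7762 fell out at 994 and 993 bp.

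Hdac2-only islands lay in long genes. Altogether 1121 of 20556 protein-coding genes on chromosomes 1 to 19 held at least 1, which is 5.45%. The share was 0.0687% of genes under 10 kb, 1.46% from 10 to 30 kb, 6.43% from 30 to 100 kb, 21.0% from 100 to 300 kb, 60.4% from 300 to 1000 kb and 94.5% of the 55 genes of 1000 kb or more. Of all 2311 genes of 100 kb or more 714 held one, or 30.9%. A gene with such an island had a median length of 160.3 kb, where the median gene had 17.58 kb. Long genes offer more sequence, so the islands were also counted per Mb of room, the gene sequence left after end windows and Hdac1 islands, each widened by 1.8 kb, are taken out. For Hdac1 islands without Hdac2 the room leaves out Hdac2 islands in place of Hdac1 islands, and for Hdac2 islands with Hdac1 it leaves out the end windows alone. The same 1.8 kb, set from the median width of Hdac2-only islands, was used for all classes. The islands of the other classes were narrower, so their room is understated, most of all in short genes.

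Per Mb of room, Hdac2-only islands were somewhat denser in the longest genes. Their density was 1.49 per Mb in genes under 10 kb, 1.43 from 10 to 30 kb, 1.82 from 30 to 100 kb, 2.01 from 100 to 300 kb, 2.65 from 300 to 1000 kb and 2.78 in genes of 1000 kb or more. Hdac1 islands without Hdac2 went the other way, from 7.81 per Mb at 30 to 100 kb to 2.81 per Mb at 1000 kb or more. Hdac2 islands with Hdac1 gave 8.75, 3.96, 3.14, 4.21, 3.03 and 1.89 per Mb. Over all genes the density was 2.13 per Mb of room inside protein-coding genes and 4.52 per Mb outside them. Hdac2-only islands were therefore sparser inside genes than between them in this library.

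**Figure D1:**
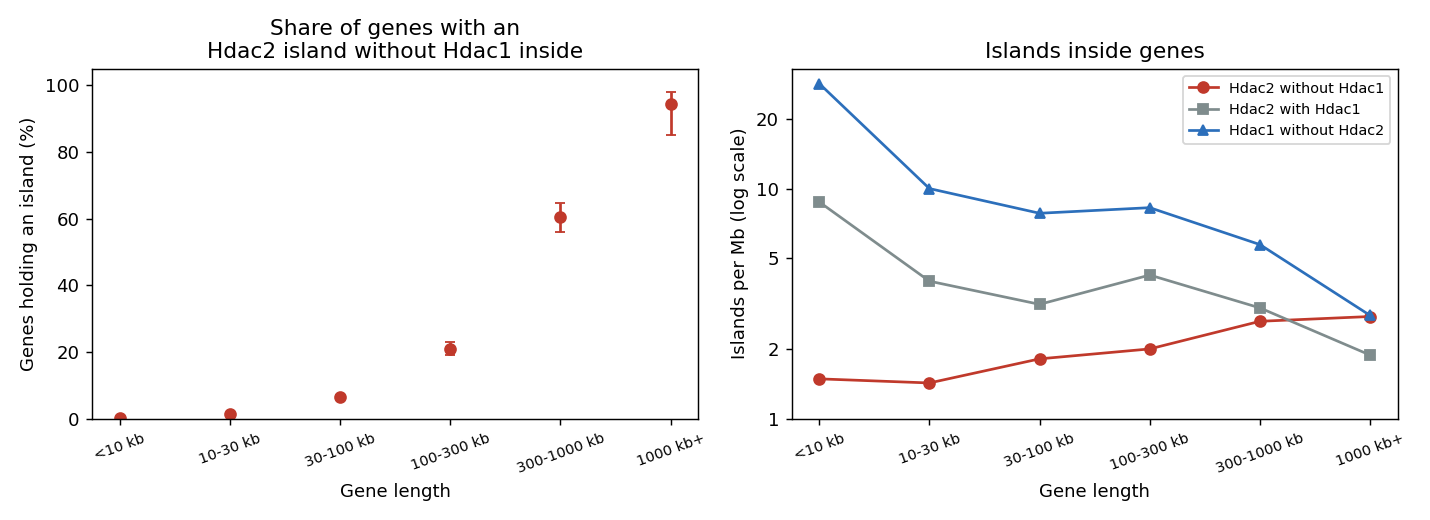
Left, share in percent of protein-coding genes on chromosomes 1 to 19 that hold an Hdac2 island without Hdac1, by gene length, with 95% Wilson intervals. Right, islands per Mb of room inside genes (log scale, with the room defined for each class as in the text), by gene length, for Hdac2 without Hdac1, Hdac2 with Hdac1 and Hdac1 without Hdac2. The share rises from 0.0687% to 94.5%, and the 3 densities lie within 1.89 to 2.81 per Mb in the longest genes.

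Within long genes the islands lay somewhat more often towards the middle. Of 923 in genes of 100 kb or more with a known strand, 16.1% lay in the first of 5 equal parts of the gene, then 23.5%, 23.1%, 19.7% and 17.6% in the parts that follow. Per Mb of room this was 1.99, 2.67, 2.61, 2.25 and 2.12 in the same order. Hdac2 islands with Hdac1 had 22.2% in the first part, and Hdac1 islands without Hdac2 had 21.6%. The nearest gene end of any kind was a median of 25.56 kb away (quartiles 10.08 and 63.9). Exons and introns could not be told apart with the annotation used here.

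Most genes held a single Hdac2-only island. Of the 1121 genes 794 had 1, 202 had 2, 67 had 3 and 58 had 4 or more. Neighbours in one gene were a median of 62.8 kb apart, and 18.5% of 573 such gaps were within 10 kb. The 15 genes with the most islands differed in how closely these were spaced.

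Zfp978, a zinc finger gene in a cluster on chromosome 4, held the most, 9 islands of 2.4 to 10.2 kb along 160.2 kb. Their values ran from 3.35e-10 to 0.00374, and the closest pair was 0.8 kb apart. Gm21154 and Gm26650, provisional genes on chromosome 14, held 8 each, over 83.8 kb and 119.8 kb. The islands in Gm21154 were 2.8 to 12.0 kb wide, and the nearest Hdac1 island to any of them was 151.0 kb away. One island of Zfp978 and one of Gm26650 also lay in an overlapping gene, Zfp988 and Gm3264. Reads in near-identical gene copies can be placed at more than one copy, so the counts in these clusters are uncertain.

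Ptprd, a receptor tyrosine phosphatase that organises synapses, held 8 islands of 2.0 to 6.8 kb spread over 1812.0 kb of its 2271 kb. Their values ran from 1.96e-15 to 1.11e-05. Fhit, which encodes a diadenosine triphosphate hydrolase and spans a common fragile site, held 8 islands of 2.2 to 7.0 kb with values of 1.57e-19 to 0.00473, as close as 5.8 kb to Hdac1. Dlg2, a postsynaptic scaffold of the PSD-95 family, held 7 islands, and all 7 had values of 1.4e-09 or lower. Pcdh15, a protocadherin of hair cell tip links, held 7 over 1181.4 kb. The closest pair of islands was 34.8 kb apart in Ptprd, 86.6 kb in Dlg2, 85.4 kb in Pcdh15 and 3.6 kb in Fhit, so most of these genes had no tight cluster.

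Luzp2, a leucine zipper gene of 433.6 kb, held 16.1 islands per Mb of its length, against 44.3 in Gm26650, 33.7 in Zfp978 and 28.9 in Gm21154. Its 7 islands, 3.2 to 7.0 kb wide, lay within 214.6 kb and had values of 7.54e-16 to 5.24e-07. The only Hdac1 island of the gene lay at its start, 90.0 kb from the nearest of them. Naaladl2, related to glutamate carboxypeptidase II, held 7 islands 104.2 to 1226.8 kb from Hdac1. Lsamp, an adhesion protein of the IgLON family, held 7 islands of 2.6 to 6.6 kb, and Agbl4, a deglutamylase of tubulin, held 7 of 2.2 to 5.8 kb. Gpc6 (a glypican), Macrod2 (an ADP-ribose hydrolase), Ccser1 and Nell1 (a secreted protein) held 6 each. Macrod2 had 15 Hdac1 islands inside as well, while Ccser1 had 2.

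**Figure D2:**
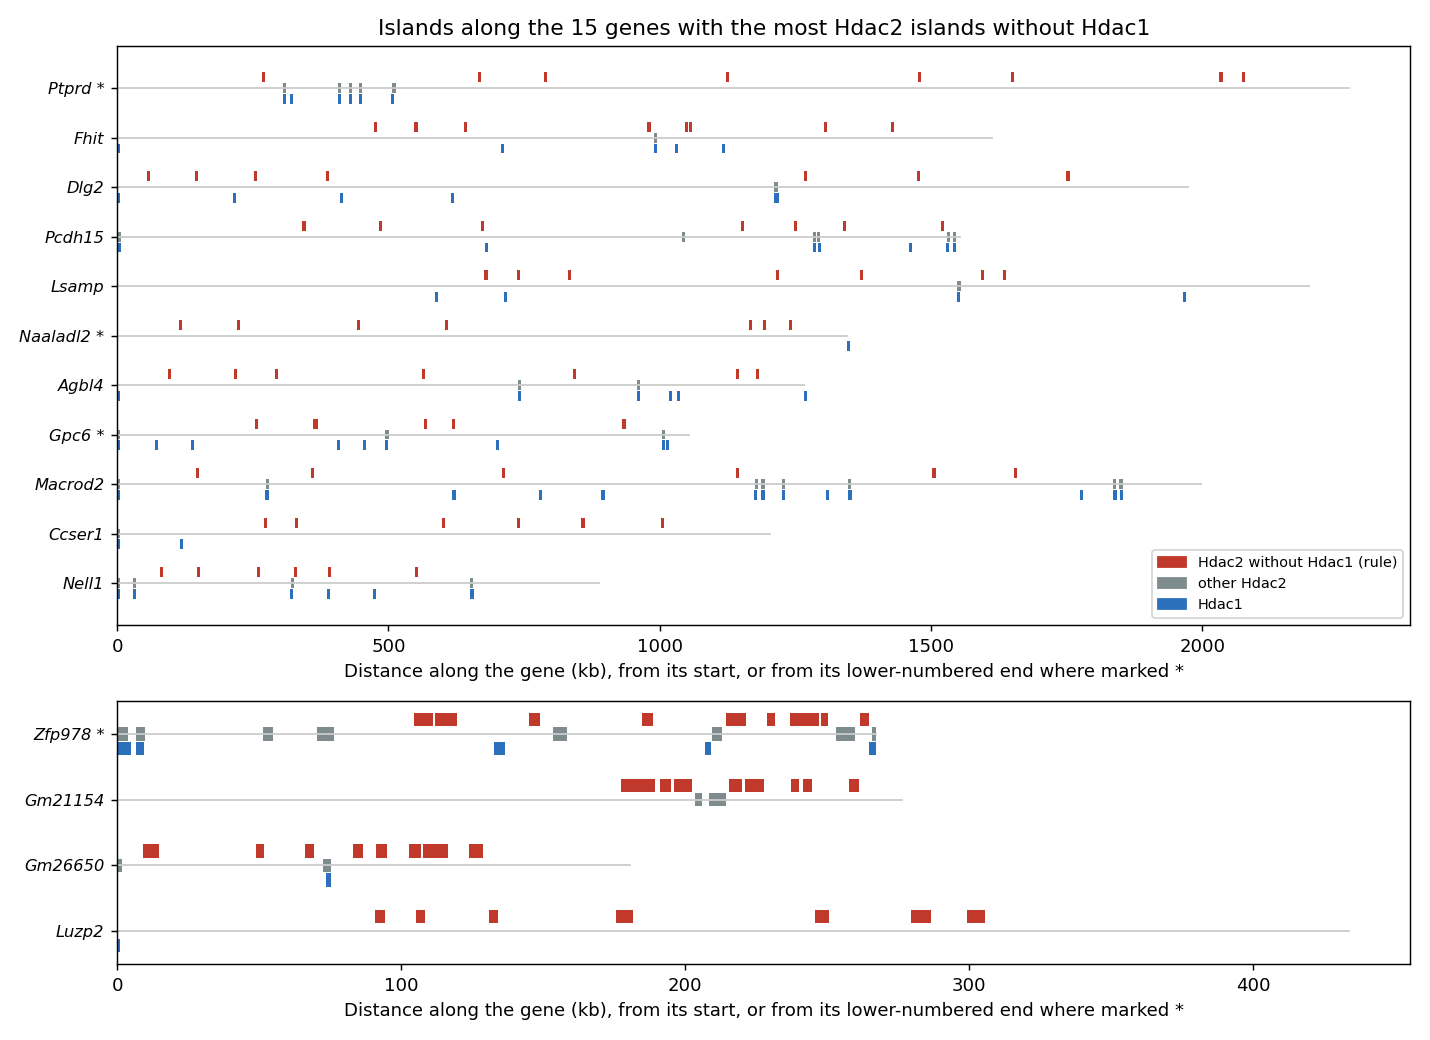
Islands along the 15 genes with the most Hdac2 islands without Hdac1 (red), with other Hdac2 islands (grey) and Hdac1 islands (blue), by distance in kb along the gene from its start. Genes marked * have no strand in the start table and run from their lower-numbered end, and islands narrower than a few pixels are widened to be seen. The islands of Zfp978, Gm21154 and Gm26650 are packed within 83.8 to 160.2 kb, and those of Ptprd are spread over 1812.0 kb.

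Not every very long gene held one. Of the 55 genes of 1000 kb or more, 3 held none, and they are named here after their values were seen. Rbfox1, a splicing factor, had 15 Hdac1 islands and 7 Hdac2 islands inside, all 7 shared with Hdac1. Tenm2, a teneurin, had 8 Hdac1 islands and 4 Hdac2 islands, all shared. Cdh13, a cadherin, had 3 of each, 2 of the Hdac2 islands shared.

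The widths of the 10 strongest Hdac2-only islands differed widely. The lowest value, 1.84e-52, belonged to an island of 0.4 kb in Dpp9, a dipeptidyl peptidase. The next, 2.53e-46, was 1.6 kb wide in Dph5, an enzyme of diphthamide synthesis, and an island of 0.4 kb in Myo7a, an unconventional myosin, had 2.29e-27. These were strong and narrow. The island in Myo5b, another unconventional myosin, was 12.2 kb wide with a value of 5.18e-30, and that of Bbs9, a subunit of the BBSome at cilia, 9.2 kb wide with 9.92e-22. Islands in Zfp804b, Ctse (cathepsin E), Scaper, Thsd7b and Usp12 (a deubiquitinase) had values from 7.62e-23 to 1.02e-21 and widths from 2.2 to 7.0 kb. Among all Hdac2-only islands 29 were 1 kb or narrower, with a median value of 4.59e-07, and 5 of these 29 were among the strongest 100.

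The 10 widest islands included 2 of the 10 strongest, those of Myo5b (12.2 kb) and Bbs9 (9.2 kb). An island of 18.6 kb in Gm7592 (4.03e-14) was the widest, at 188.2 kb from Hdac1, and Gm21154 had one of 12.0 kb. Gm38510 held 2, of 11.8 and 10.8 kb, Gm4724 one of 10.6 kb, Rex2 and Zfp978 one of 10.2 kb each, and nonagouti (symbol a), the coat colour gene, one of 9.8 kb with a value of 0.00027. Of 16 islands of 8 kb or more, 7 lay in genes with provisional symbols, 1 in a gene named Zfp and 8 in other genes. Genes named Gm with a number or ending in Rik held 136 Hdac2-only islands with a median of 4.2 kb, at 7.62 per Mb of room, and genes named Zfp held 45 with a median of 3.8 kb, at 4.92 per Mb. All other genes held 1486 with a median of 3.6 kb, at 1.97 per Mb. The Zfp islands had a median value of 7.86e-06, weaker than 2.25e-08 in all other genes. These families were picked after the values were seen, and near-identical copies make their counts uncertain.

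Genes of synapses held Hdac2-only islands in numbers near those their length gives. Each list below stands beside the count obtained by adding up, over its genes, the share of all genes in the same length bin that held an island. Among 40 genes of synaptic adhesion 27 held an island, where length gives 24.6. Lsamp had 7, Lrrc4c (a ligand of netrin-G) and Csmd1 5 each, and Cadm2 4. The islands of Lrrc4c were 2.4 to 5.8 kb wide, with values from 6.8e-19 to 0.000239, in a gene with 1 Hdac1 island. Of 25 glutamate receptor genes 9 held one, where length gives 9.28, among them Grid1 (5 islands), Grm7 (4) and Grm5 (2). An island of Grm5, a metabotropic receptor, was 7.8 kb wide with 5.24e-20.

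Ion channels gave a like picture. Potassium channels and their partners had 15 of 30, where length gives 11.9, with Kcnn2 (4 islands), Kcnip4, Kcnh7 and Dpp6 (2 each). Calcium and sodium channels had 7 of 27 and GABA receptors 2 of 16, where length gives 8.88 and 3.08. The GABA receptor genes were Gabrg3 with 4 islands and Gabrb1 with 3. Gabrg3 had no Hdac1 island inside or at its ends, and its islands were 1.4 to 4.4 kb wide.

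Adhesion and guidance genes were close to their length too. Cadherins and protocadherins had 8 of 40, where length gives 10.1. Cdh12 held 5 islands and Cdh18 4, both without any Hdac1 island inside or at an end, and Pcdh9 held 2, also without Hdac1. Axon guidance genes had 14 of 42, where length gives 14.7, led by the netrin receptor Unc5d (4), Robo1 (3), Sema6d (3) and Ntng1 (3). Receptor tyrosine phosphatases had 5 of 20, where length gives 6.47. Ptprt held 4 islands, Ptprn2 and Ptprm 2 each.

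Scaffold proteins had 15 of 26, where length gives 14.3, with Dlg2 (7), Ctnna3 (5), Magi2 (4) and Ctnnd2 (3). Phosphodiesterases had 6 of 19, where length gives 6.02, among them Pde1c (4), Pde4d (3), Pde1a (2) and Pde7b (1). A list of very large genes had 25 of 34, where length gives 25.9. Few genes are that long and these are counted in the shares themselves, so a near match was largely built in. Transcription factor genes with long introns had 12 of 48, where length gives 18.8. The count was 27 when the upper 50% of Hdac1 islands alone counted as Hdac1. In that setting 1754 genes in all held an island, and the number given by length was not recomputed, so 27 cannot be set beside 18.8. Creb5, Zfhx3, Zbtb20 and Mitf held 2 each, and in Creb5 there were 20 Hdac1 islands beside them. An Hdac1 island at an end was present in 40 of these 48 genes, of which 43 were 100 kb or longer. Over all genes of that length it was present in 69.3% of those with and 78.2% of those without an Hdac2-only island.

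Few kidney genes held Hdac2-only islands, and their number was near that given by length. Among 34 genes of nephron progenitors 3 did, where length gives 2.12. Meox2, a homeobox gene of uncommitted progenitors, had one of 2.0 kb with 2.29e-11, 10.8 kb from Hdac1. Dpf3, a subunit of BAF chromatin remodelling complexes, had one of 2.8 kb with 8.5e-08, and Elavl4, an RNA-binding protein, one of 3.0 kb with 6.64e-07.

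Of 30 renal vesicle genes 3 did, where length gives 1.96. They were Hnf4a, the proximal tubule regulator (3.0 kb, 3.72e-11), Cdh6, a cadherin of early nephron epithelium (3.6 kb, 2.58e-08), and Tcf7l2, a Wnt effector (2.4 kb, 0.000901). Of 24 podocyte and tubule genes 3 did, where length gives 3.45. Magi2, a scaffold of the slit diaphragm, held 4 islands, Slc4a4, a bicarbonate transporter, 2 and Plce1, a phospholipase of podocytes, 1.

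Markers of other cell types held 3 islands in all. None of 22 stroma genes and none of 20 ureteric bud genes held one, where length gives 1.92 and 0.688. Of 20 endothelium and blood genes 3 did, where length gives 1.32, namely Erg (5.6 kb, 2e-13), Tek (5.6 kb, 1.54e-06) and Emcn (4.2 kb, 7.95e-10). Of 34 genes of the deacetylase complexes themselves only Sap130, a Sin3 subunit, held an island (4.0 kb, 2.16e-07). Where a count is 5 or less, 1 gene moves it much, and no list is called different from its length.

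**Figure D3:**
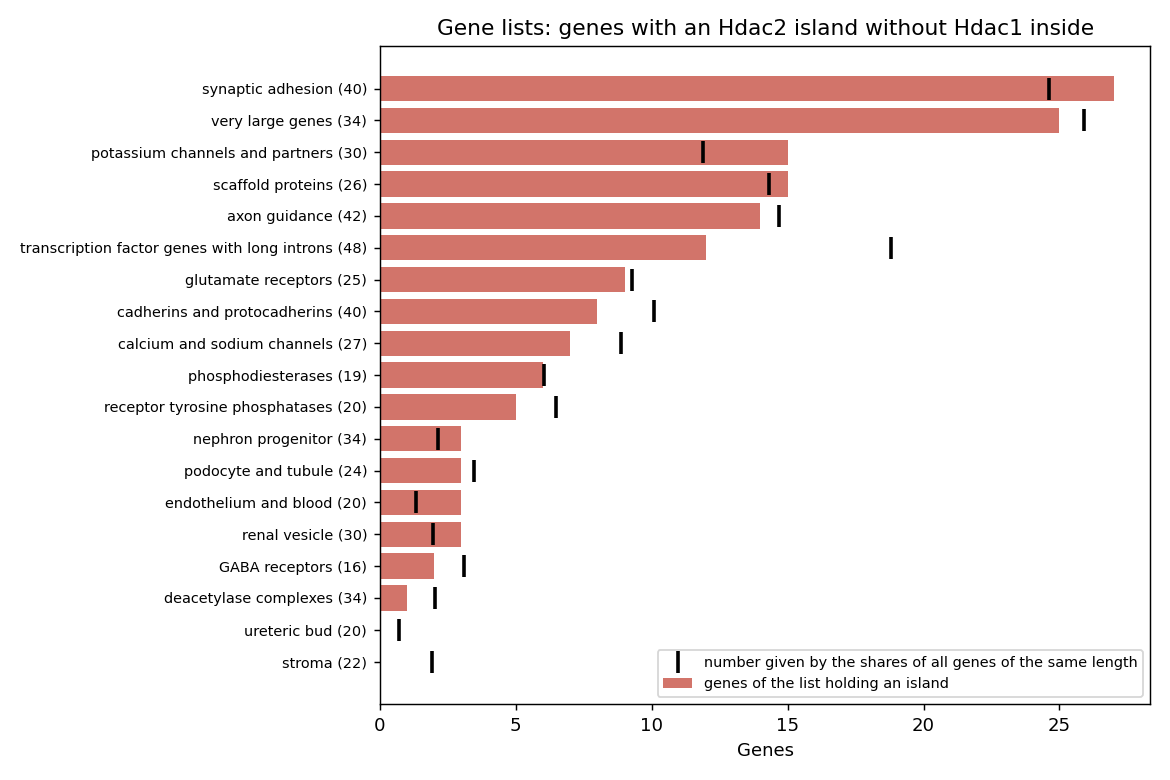
Number of genes in each of 19 lists that hold an Hdac2 island without Hdac1 (bars, list size in parentheses), beside the number that the share of all genes in the same length bins gives (black marks). Synaptic adhesion stands at 27 against 24.6, and transcription factor genes with long introns at 12 against 18.8.

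The genes that held Hdac2-only islands were not devoid of Hdac1. An Hdac1 island lay inside or over 877 of the 1121 (78.2%), and 597 (53.3%) had another Hdac2 island that did overlap Hdac1. In 498 (44.4%) every Hdac2 island was of the Hdac2-only kind, and 237 (21.1%) had no Hdac1 island inside or at an end. Among the 714 of 100 kb or more, 91 (12.7%) had no Hdac1 island inside or at an end. These shares depend on gene length and are not set beside other genes of like length. They do not show whether the 1121 genes differ from others.

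At gene ends, 715 of the 1121 (63.8%, 60.9 to 66.5) had an Hdac1 island within 1 kb, against 62.9% of the other genes. Within 5 of 6 length bins the share was lower in genes with Hdac2-only islands. It was 2 of 5 genes against 46.9% under 10 kb, then 48.3% against 68.8% at 10 to 30 kb, 55.9% against 75.4% at 30 to 100 kb, 72.2% against 78.1% at 100 to 300 kb and 67.4% against 79.4% at 300 to 1000 kb. At 1000 kb or more it was higher, 59.6% (31 of 52 genes) against 33.3% (1 of 3). For genes of 100 kb or more together it was 69.3% (65.8 to 72.6) against 78.2% (76.1 to 80.2), and for an Hdac2 island at an end 39.9% against 51.0%. Over genes of all lengths an Hdac2 island at an end was more frequent with an Hdac2-only island inside, 38.9% against 33.3%, and so it was at 10 to 30 kb, 39.3% against 32.7%. The rule asks that no Hdac1 island lie over the island itself, so the Hdac1 list was used in part.

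**Figure D4:**
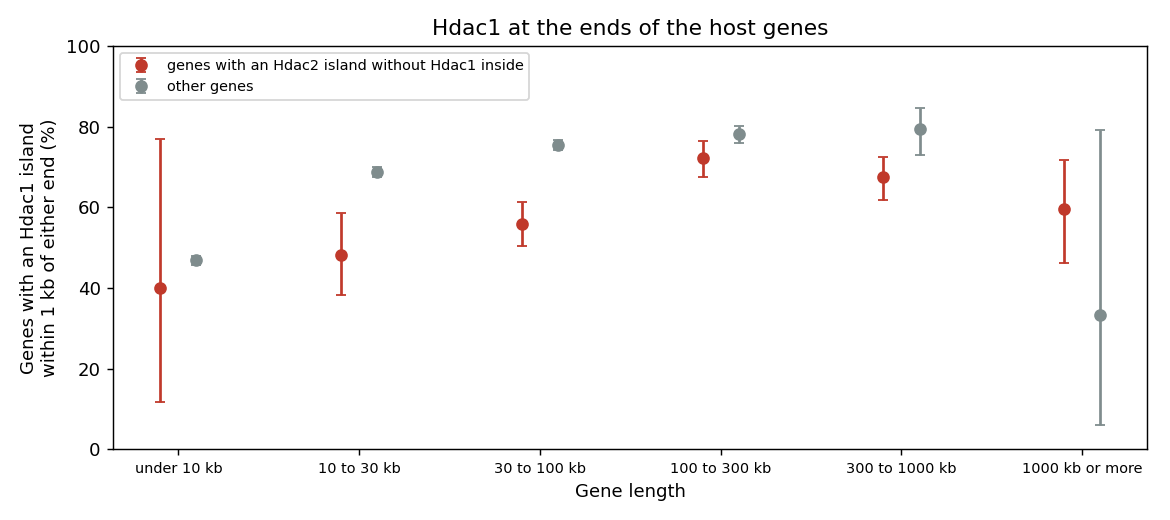
Share in percent of genes with an Hdac1 island within 1 kb of either end, by gene length, for genes with an Hdac2 island without Hdac1 inside (red) and other genes (grey), with 95% Wilson intervals. The red points lie below the grey ones in 5 bins and above in the last, at 59.6% against 33.3%, where the grey point stands for 3 genes; the first red point stands for 5.

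The CG content of the first start also differed, though not alike in each length bin. For genes of 100 kb or more with a known start, its median was 17 CG pairs in 300 bases where an Hdac2-only island lay inside and 22 elsewhere. By bin it was 17 against 23 at 100 to 300 kb and 18 against 19 at 300 to 1000 kb. At 1000 kb or more it was 12 against 2.5, the latter from 2 genes. An Hdac1 island lay at an annotated start in 72.1% against 85.2% at 100 to 300 kb. At 300 to 1000 kb the shares were 74.2% (68.1 to 79.5) against 81.8% (74.7 to 87.3), with overlapping intervals. At 1000 kb or more they were 76.9% against 0 of 2 genes. Within CG groups of the genes of 100 kb or more, Hdac1 lay at a start in 22.7% against 34.6% with 5 or fewer pairs. It did so in 60.0% against 72.2% with 6 to 14 and 94.6% against 98.4% with 15 or more. The part of CG content in the lower share was not tested beyond these groups.

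Chromosomes differed in density. Chromosome 14 had 3.43 Hdac2-only islands per Mb of room inside genes and chromosome 4 had 2.76, with a median of 2.11 over the 19 chromosomes. Chromosome 11 was lowest at 1.09. Across the 19 chromosomes the density inside genes and that of Hdac2-only islands between genes had a Spearman correlation of 0.517. Both come from 1 library.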

How the data were processed

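The submitters' processing notes name mm10 as the build and, as tools, SICER, BWA 0.7.5a, bedtools 2.17, SAMtools 1.3.1 and FastQC. SICER merges enriched windows into islands, so island edges are coarse. The sources used here do not state the SICER version, its settings, the background library, the depth or any pooling of reads. In the deposited lists each island has a position and a single value, either a p-value or a q-value, and all were below 0.1. Positions were converted to 1-based. Per the labels' protocols, libraries came from 500 pg of DNA with 12 or more PCR cycles, so reads are not all independent molecules.

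Overlap meant 1 shared base. Ends of all annotated genes, of any kind, were left out. Protein-coding genes listed before base 3000000, where no island lies, were left out of gene counts. Start windows and sequences are from RefSeq (GRCm38.p6). Of 539 distinct listed genes 537 were on chromosomes 1 to 19 of the annotation. The islands, and the 19 gene lists, were chosen with earlier results of these data known. Named genes are the 15 with the most islands, those of the 10 lowest values and 10 widest islands, and up to 4 per list, besides those said to be picked later, and individual results of some are not reported here. The CG and shared-letter counts were also added later. Python 3.11.15, numpy 2.4.6, pandas 2.3.3 and scipy 1.17.1 were used. The overlap step was tested on simulated data, where it found the same 6481 islands as bedtools 2.31.1. It also returned 200 of 200 planted islands. These had been picked with the same overlap function to meet the rule, so that result was built in. Alternatives were stricter lists for either antibody, a gap of 1 kb to Hdac1, a window of 5 kb, ends of protein-coding genes only, islands wholly in a gene and islands merged within 1 kb.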

Additional observations from a re-analysis of the deposited data

How the results depend on the processing

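The counts depended on the thresholds of both lists. With the upper 50% of Hdac2 islands 792 islands in 630 genes met the rule, with a median width of 4.2 kb. All 630 genes were among the 1121, which was built in because the stricter list is part of the full one. When the upper 50% of Hdac1 islands alone counted as Hdac1, 2825 islands in 1754 genes met it, the median width was 3.0 kb and the share of genes with Hdac1 at an end was 57.9%. In that setting the end islands were also taken from the shorter Hdac1 list. The other 5 alternatives gave 1473 to 1723 islands in 979 to 1148 genes, medians of 3.6 to 3.8 kb and shares of 63.5% to 65.9%. One of these, islands wholly in a gene, could change nothing. An island that overlaps a gene and avoids its ends lies wholly inside it. List counts were within 1.5 times the main count in 11 of 19 lists with the stricter Hdac2 list, in 10 of 19 with the stricter Hdac1 list, and in 18 or 19 under each other alternative. No paired analysis was possible because each antibody has 1 library. The depth is unknown, so an absent Hdac1 island cannot be told from one below the caller's threshold, and with 1 library per antibody no spread between replicates could be measured.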

Other observations

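Chromosome X lies outside the rule. Of its 736 Hdac2 islands 672 (91.3%) had no Hdac1 island over them, against 38.4% on chromosomes 1 to 19, and 94 (12.8%) would have met the rest of the rule, with a median width of 3.8 kb. Diaph2, a formin, Il1rapl1, a synaptic adhesion protein, and Tenm1, a teneurin, held 5 each. Dach2 and Dmd, the dystrophin gene, held 4 each.

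Start windows in any Hdac2 island without Hdac1, at gene ends or inside genes, held recurring letters more often than other start windows. A run of 24 letters found at the starts of 10 or more genes was present in 51 of 153 such windows (33.3%, 26.4 to 41.1), in 11 of 100 windows in an Hdac2 island that meets Hdac1 elsewhere (Wilson interval 6.25 to 18.6%), in 5.97% of 16594 windows in no island and in 1.82% of 7420 windows in islands of both antibodies. The median number of CG pairs was 2, 4.5, 3 and 25 in the same order. Copies of one gene family were not separated from other recurring sequence. Few of the 153 windows lay in Hdac2-only islands inside genes, so the 33.3% does not describe that class. Of those few, both internal Fut8 starts were among the 51, with letters shared by 13 genes. The windows of Rex2 (8 genes), Wiz (6) and Cd209c (1) were not.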
